A study of Homo sapiens with 51 samples.

Results

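The transforming growth factor beta (TGF-beta) and activin pathway was followed through 9 genes in 2 human mammary cell lines, one of which had been made to overexpress the transcription factor TWIST1. The 9 genes, TGFB1, TGFB2, INHBA, INHBB, TGFBR1, TGFBR2, SMAD7, SKIL and TGFBI, were chosen by name as ligands, receptors, inhibitors and a target gene of the pathway. They are 9 of the 24033 genes in the deposited expression matrix, and all 9 had values in every library. The choice of genes was made with earlier results of these data known. RNA was sequenced from 17 groups of 3 libraries each, 51 in all. HMLE is an immortalised line grown from human mammary epithelium, taken here as wild type, and HMLE-TWIST1 is that line with TWIST1 overexpressed. SUV39H1 and SUV39H2 are 2 of the enzymes that methylate lysine 9 of histone H3, and chaetocin is a fungal compound used to block them. HMLE-TWIST1 cells were given chaetocin at 100, 150, 200 or 500 nM for 48 h and harvested at day 2. Whether it acted through these enzymes here was not tested. Further HMLE-TWIST1 cells were given 80 nM chaetocin for 15 h and then fresh medium for 48 h, and were harvested at day 4. Both lines were given Dicer-substrate siRNA (DsiRNA) against SUV39H1 and SUV39H2 together and harvested at day 2, after 48 h, or at day 4, after a further 48 h in fresh medium. The matching controls were a scramble DsiRNA in both lines at both days, DMSO for 2 days in both lines, and DMSO for 15 h followed by 48 h of fresh medium in both lines at day 4. The labels do not say whether the 3 libraries of a group came from separate cultures, so p-values measure the spread between these libraries, which may be technical.

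TGF-beta ligands are secreted in a latent form and, once freed, bring together the type II receptor TGFBR2 and the type I receptor TGFBR1, which phosphorylates SMAD2 and SMAD3. Activins, dimers of the inhibin beta subunits encoded by INHBA and INHBB, signal through other receptors to the same SMADs. The SMADs switch on target genes, among them their own inhibitors SMAD7 and SKIL, and in mammary epithelial cells the pathway both restrains growth and drives the change to a mesenchymal state that TWIST1 also drives.

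The libraries held 7897060 to 15662385 reads in the listed genes. TWIST1 lay at 217.2 to 659 CPM, reads scaled to library size, in the 33 HMLE-TWIST1 libraries, against 4.79 to 15.6 CPM in the 18 HMLE libraries. Both targets of the DsiRNA were lower in all 4 knockdown comparisons, by 0.90 to 1.40 on the log2 scale for SUV39H1 and by 0.39 to 1.21 for SUV39H2. The labels call both lines mammary epithelial, yet the summed level of 6 epithelial markers was 2.05 to 9.55 CPM in HMLE-TWIST1 libraries and 5206 to 12000 CPM in HMLE libraries, while 5 mesenchymal markers summed to 5515 to 30050 CPM in HMLE-TWIST1 and 755.2 to 3282 CPM in HMLE. By median, FN1 had 12610 CPM beside a mesenchymal sum of 16210 CPM in HMLE-TWIST1, and 1588 beside 1605 CPM in HMLE. KRT5 and KRT14 had medians of 3988 and 2049 CPM beside an epithelial sum of 7194 CPM in HMLE. The sums thus speak mainly for these genes, although FN1 was the only marker of both lists to overlap between the lines. Every difference between the lines below therefore stands beside that difference in markers, whose part in it was not tested. By which genes have values, the deposited matrix falls into 3 sets of libraries, with 21700, 19777 and 23098 genes listed. These sets are read from the matrix, not from the labels. The 100 to 500 nM libraries are a set of their own, apart from the DMSO libraries they are set against. For these doses the treatment and the set cannot be told apart, whereas the 80 nM libraries and the DsiRNA libraries share a set with their own controls.

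The windows around the start sites of the ligand genes, from 250 bases before to 50 after, are shown because the results compare the 2 members of each ligand pair. They are RefSeq sequences on GRCh38.p14, in the direction of the gene, with matches to the letters TATAAA or CCGCCC on either strand in capitals. Overlapping matches were counted separately.
INHBB, chr2:120345886-120346185, plus strand: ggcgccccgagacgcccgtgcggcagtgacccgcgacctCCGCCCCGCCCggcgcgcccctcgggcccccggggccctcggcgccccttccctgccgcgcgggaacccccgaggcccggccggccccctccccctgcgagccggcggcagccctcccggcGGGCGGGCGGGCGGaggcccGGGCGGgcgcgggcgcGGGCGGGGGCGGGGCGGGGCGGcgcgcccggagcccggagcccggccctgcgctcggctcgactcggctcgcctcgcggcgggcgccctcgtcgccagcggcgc
INHBA, chr7:41703041-41703340, minus strand: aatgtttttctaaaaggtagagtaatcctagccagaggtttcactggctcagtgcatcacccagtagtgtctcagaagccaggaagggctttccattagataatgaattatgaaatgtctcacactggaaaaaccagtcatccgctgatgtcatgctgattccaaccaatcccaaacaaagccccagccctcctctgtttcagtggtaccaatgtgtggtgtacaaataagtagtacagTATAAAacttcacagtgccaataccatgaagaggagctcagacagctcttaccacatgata
TGFB1, chr19:41353873-41354172, minus strand: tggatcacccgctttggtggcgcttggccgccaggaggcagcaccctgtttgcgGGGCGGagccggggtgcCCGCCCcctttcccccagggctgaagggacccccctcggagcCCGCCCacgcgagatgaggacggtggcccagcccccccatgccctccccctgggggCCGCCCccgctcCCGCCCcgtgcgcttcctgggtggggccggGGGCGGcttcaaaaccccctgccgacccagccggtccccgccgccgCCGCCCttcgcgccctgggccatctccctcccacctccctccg
TGFB2, chr1:218345086-218345385, plus strand: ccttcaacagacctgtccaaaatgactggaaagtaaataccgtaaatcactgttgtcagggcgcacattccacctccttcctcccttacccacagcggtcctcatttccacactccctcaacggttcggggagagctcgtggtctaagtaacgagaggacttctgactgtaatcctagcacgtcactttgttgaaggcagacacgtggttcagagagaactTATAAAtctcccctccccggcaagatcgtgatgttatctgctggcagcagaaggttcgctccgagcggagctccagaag

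The windows of each ligand pair differed in composition. That of INHBB was 88.7% G or C with 58 CpG dinucleotides and 10 matches to CCGCCC, whereas that of INHBA was 43.3% G or C with 1 CpG and 1 match to TATAAA. The TGFB1 window held 28 CpG and 7 matches to CCGCCC, and the TGFB2 window held 14 CpG and 1 match to TATAAA. Over 35116 RefSeq windows of this length the median was 14 CpG, 45.0% held CCGCCC and 11.5% held TATAAA. These are matches of letters only.

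Per length, TGFBI, a secreted matrix protein induced by TGF-beta, was the most abundant member in 15 of the 17 groups, and INHBA was in the other two, HMLE at day 4 with SUV39H1/H2 DsiRNA or scramble. TGFBI group means ran between 83.7 and 318.2 RPKM, reads scaled by gene length and library size. INHBA and SKIL spanned a wide range, with group means of 3.25 to 152.9 RPKM for INHBA and 11.6 to 111.7 RPKM for SKIL. TGFB1, TGFBR2 and TGFBR1 moved within narrower ranges, 13.8 to 37.6, 15.6 to 35.4 and 9.06 to 23.5 RPKM. TGFB2 had group means of 2.63 to 12.5 RPKM, SMAD7 of 0.654 to 12.9 RPKM and INHBB of 0.0537 to 14.3 RPKM. By group mean, the 2 lines stood apart in INHBB, INHBA, SMAD7 and SKIL. All 11 HMLE-TWIST1 groups lay above all 6 HMLE groups in mean INHBB, and all 6 HMLE groups lay above all 11 HMLE-TWIST1 groups in mean INHBA, SMAD7 and SKIL.

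**Figure D1:**
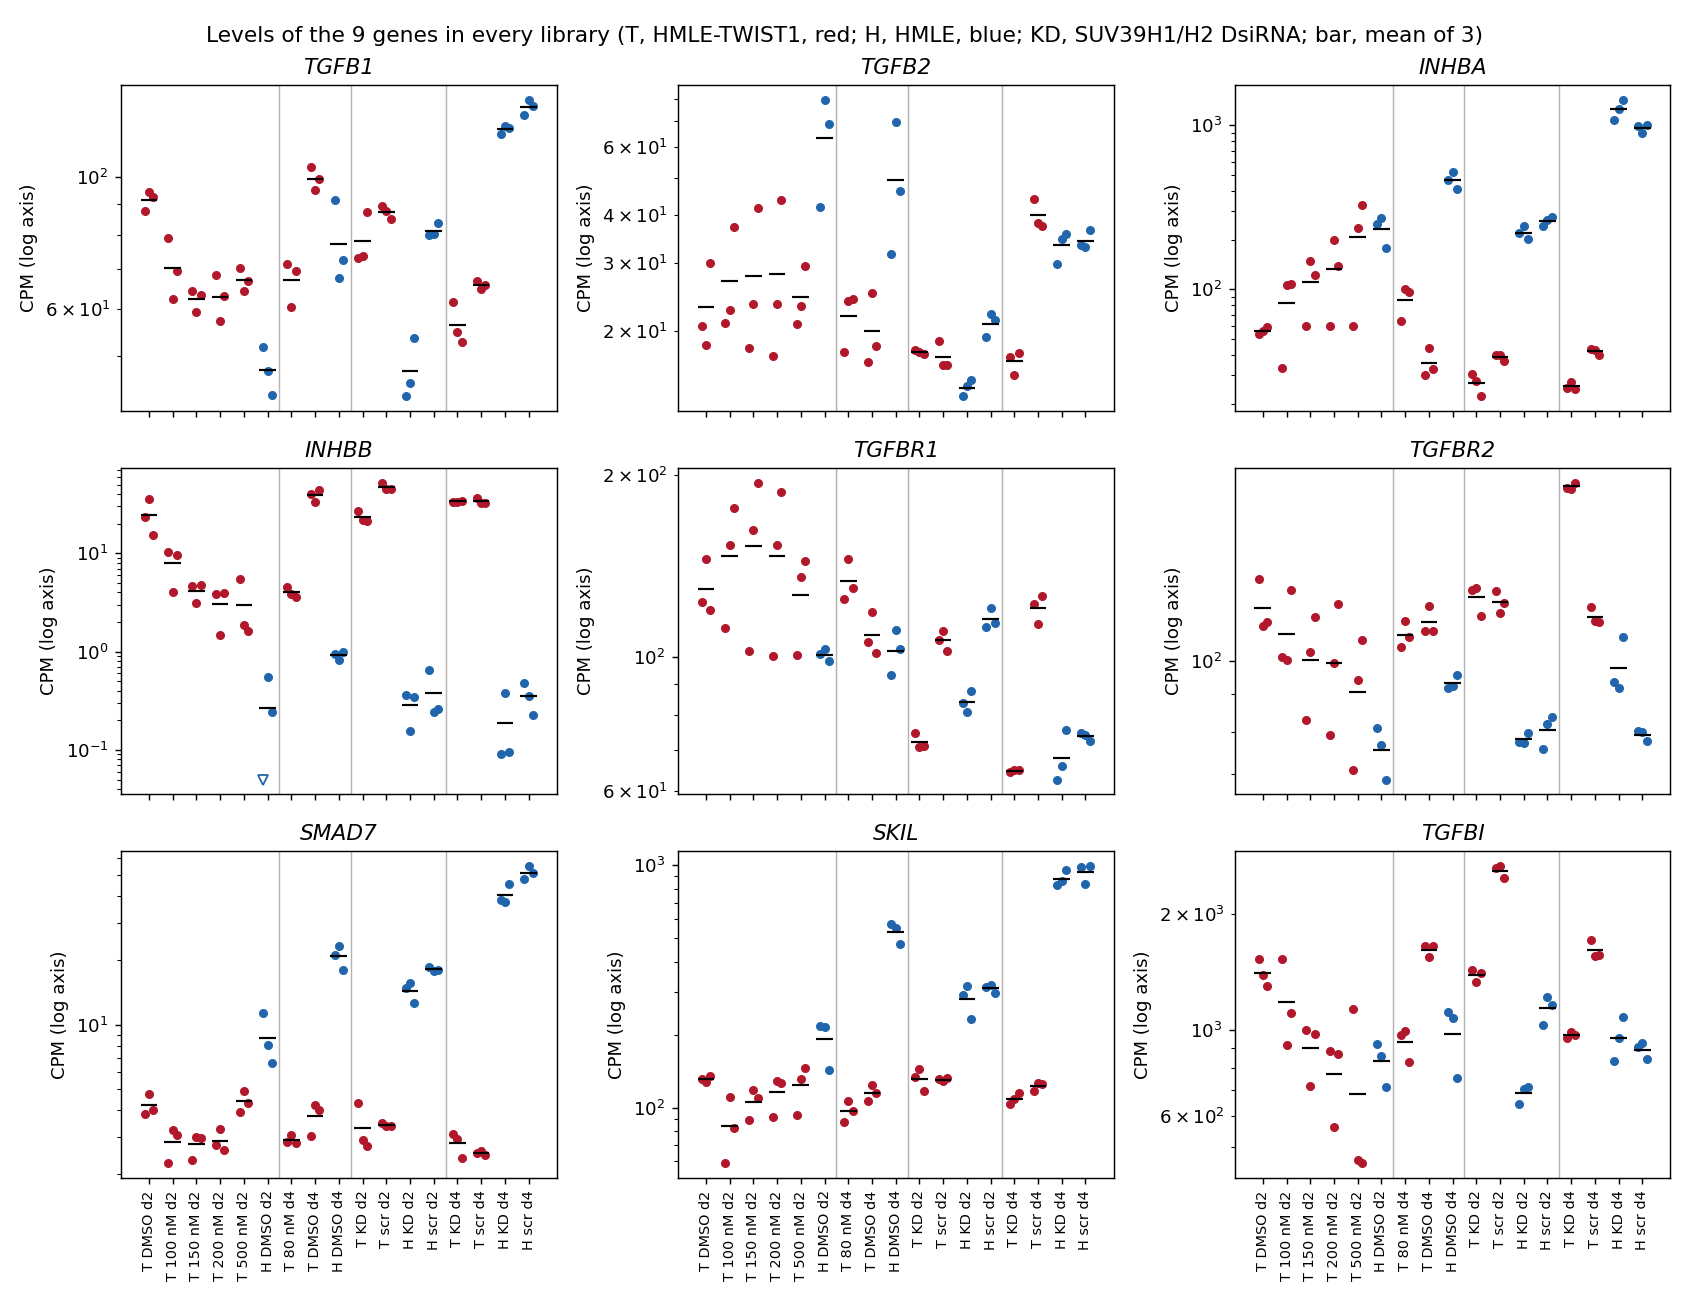
Level of each of the 9 genes in CPM (log axis) in the 17 groups, 1 point per library and a bar at the group mean; an open triangle marks a library with 0 reads, drawn at 0.05 CPM. INHBB is low in every HMLE library, and INHBA, SMAD7 and SKIL are highest in the HMLE groups at day 4.

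When the groups are ordered by mean, most neighbours overlap. Of the 16 steps between neighbouring groups, the libraries were separate at 5 for TGFB1 and SMAD7, 4 for INHBA and INHBB, 3 for SKIL, 2 for TGFB2, TGFBI and TGFBR1, and 1 for TGFBR2. For INHBB the lowest HMLE-TWIST1 group, 500 nM chaetocin at 2.99 ± 2.16 CPM (SD, n = 3), was separate from the highest HMLE group, DMSO at day 4, at 0.917 CPM. For SMAD7 the highest HMLE-TWIST1 group, 500 nM chaetocin at 4.39 CPM, was separate from the lowest HMLE group, DMSO at day 2, at 8.70 CPM. For INHBA and SKIL the libraries overlapped at this boundary. INHBA averaged 221.3 ± 20.2 CPM in HMLE with SUV39H1/H2 DsiRNA at day 2 and 208.4 ± 136.5 CPM in HMLE-TWIST1 at 500 nM chaetocin. SKIL at day 2 averaged 191.3 ± 41.8 CPM in HMLE with DMSO and 131.7 ± 13.5 CPM in HMLE-TWIST1 with the DsiRNA.

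The first comparison set HMLE-TWIST1 against HMLE cells in 4 control settings: DMSO at day 2 and day 4 and scramble DsiRNA at day 2 and day 4. The 2 activin subunit genes were opposed in all of them. HMLE-TWIST1 cells had far more INHBB and far less INHBA, and also less SMAD7, while TGFBI and the type II receptor TGFBR2 were modestly higher. Differences were tested with limma across all genes and adjusted by Benjamini-Hochberg, with a threshold of 0.05, and fold changes are of log2(CPM) with a prior count of 2 reads. The lines differed in much of the transcriptome, so member counts stand beside a high background. With DMSO at day 2, 4 of the 9 members were higher and 3 lower, where 47.4% of all genes tested were called, 24.1% higher and 23.2% lower. The counts were 4 higher and 4 lower with DMSO at day 4 (66.9% of genes called, 33.5% higher and 33.4% lower), 3 and 4 with scramble at day 2 (69% called, 35.7% and 33.3%) and 5 and 4 with scramble at day 4 (74.4% called, 37.6% and 36.8%).

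INHBB, the beta B subunit of activin B, had 23.2, 35.3 and 15.4 CPM in HMLE-TWIST1 libraries with DMSO at day 2, against 0, 0.550 and 0.244 CPM in HMLE libraries, or 910 against 11 reads in all. With scramble at day 2 it had 52.0, 45.4 and 44.9 CPM in HMLE-TWIST1, against 0.643, 0.242 and 0.258 CPM in HMLE. The groups were far apart in every setting. The log2 difference was 5.96 (SE 0.56, limma adjusted p = 1.45e-07) with DMSO at day 2, 5.13 with DMSO at day 4, 6.58 with scramble at day 2 and 6.07 with scramble at day 4, and the HMLE counts are so low that these sizes depend on the prior count.

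INHBA, the beta A subunit that forms activin A, had 53.1, 56.1 and 58.8 CPM in HMLE-TWIST1 with DMSO at day 2, against 252.2, 271 and 179.3 CPM in HMLE. At day 4 with scramble it had 43.3, 42.4 and 39.7 CPM in HMLE-TWIST1, against 985.6, 894.4 and 999.5 CPM in HMLE. The groups did not overlap in any of the 4 settings, and the gap was widest with scramble at day 4. The log2 difference was -2.06 (SE 0.63, limma adjusted p = 0.0138) with DMSO at day 2, -3.75 with DMSO at day 4, -2.70 with scramble at day 2 and -4.51 (SE 0.08, limma adjusted p = 3.34e-18) with scramble at day 4. If the counting did not use strand, which is not given in the sources used here, reads of the listed antisense gene INHBA-AS1 cannot be told apart from those of INHBA.

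As a share of the 2 activin subunit genes per length, INHBB made up 50.7%, 59.7% and 38.1% in HMLE-TWIST1 with DMSO at day 2, and 0.264% on average in HMLE. With scramble at day 2 the share was 74.1% ± 1.35 in HMLE-TWIST1 (SD, n = 3) and 0.351% in HMLE. Every DMSO or scramble HMLE-TWIST1 library thus held a mixture of both transcripts, and HMLE libraries held INHBA almost alone. Transcript shares were measured, not the activin dimers.

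**Figure D2:**
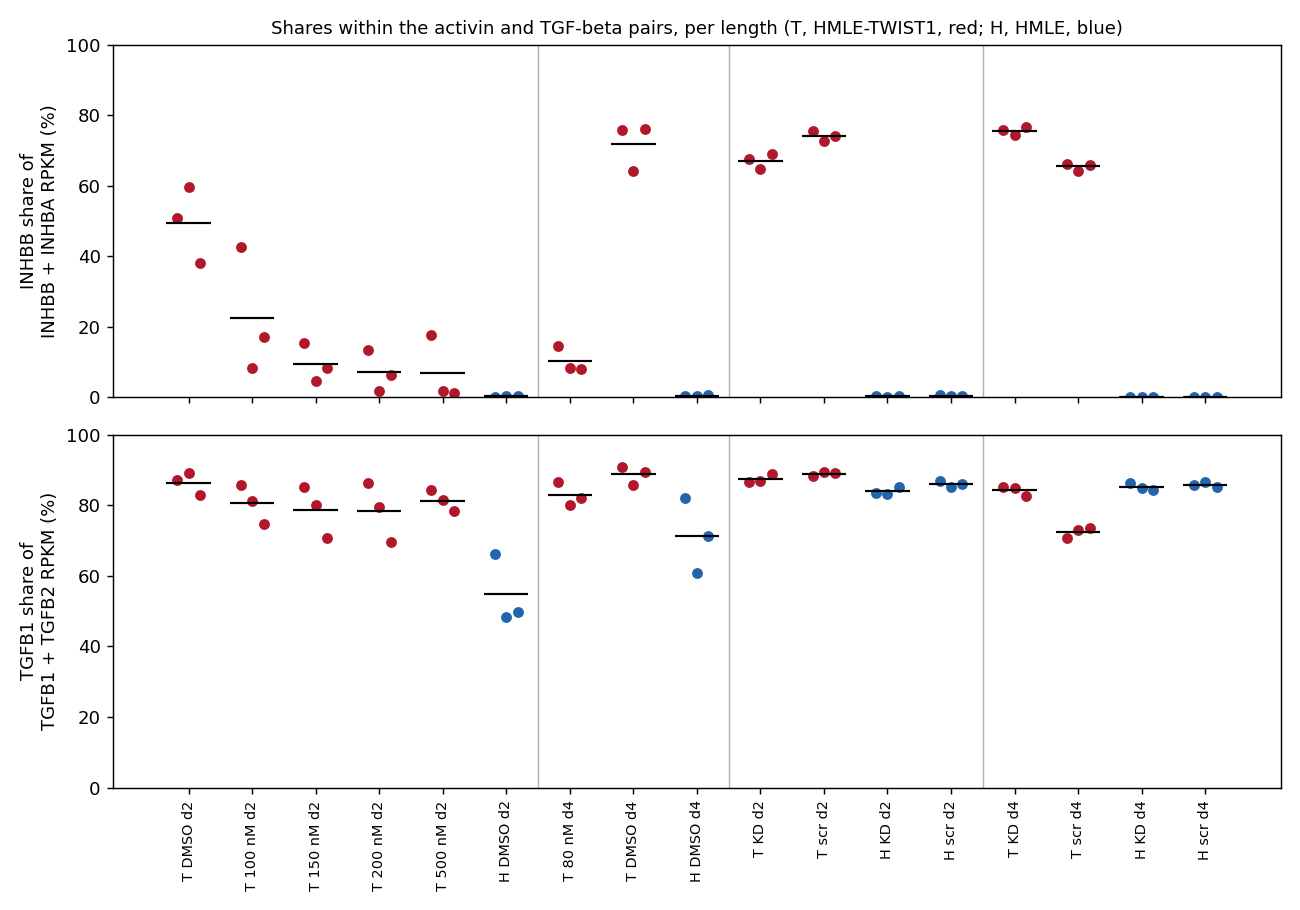
Share of INHBB in INHBB plus INHBA and share of TGFB1 in TGFB1 plus TGFB2, in percent of their summed RPKM, 1 point per library by group. INHBB shares are near 0 in every HMLE group and are lower on average at every chaetocin dose than with DMSO in HMLE-TWIST1, and TGFB1 is the larger share in most libraries.

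The order of the lines in TGFB1, the main TGF-beta ligand of most tissues, was not fixed. With DMSO at day 2 it had 87.9, 94.3 and 92.5 CPM in HMLE-TWIST1, against 51.6, 47.1 and 42.9 CPM in HMLE (log2 difference 0.94, SE 0.10, limma adjusted p = 2.71e-07). With scramble at day 4 it had 66.9, 64.7 and 65.7 CPM in HMLE-TWIST1, against 127.4, 135.1 and 131.8 CPM in HMLE (-0.997, SE 0.06, limma adjusted p = 5.97e-11). The groups were separate in both settings, in opposite directions. With DMSO at day 4 the difference was 0.34 (limma adjusted p = 0.00956), a call that was lost without HMLE replicate 2 (0.24, adjusted p = 0.0544). With scramble at day 2 it was 0.15 (limma adjusted p = 0.0958).

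TGFB2, a second TGF-beta ligand, had 20.6, 18.4 and 30.0 CPM in HMLE-TWIST1 with DMSO at day 2, against 42.1, 79.7 and 69.0 CPM in HMLE. It was lower in HMLE-TWIST1 with DMSO at day 2 (-1.46, limma adjusted p = 0.00465) and at day 4 (-1.28, limma adjusted p = 0.00313). With scramble the difference was smaller: -0.24 at day 2 (limma adjusted p = 0.0252) and 0.21 at day 4 (limma adjusted p = 0.0464). Neither scramble call was robust to leaving out a library. That at day 2 was lost without HMLE replicate 3 (adjusted p = 0.0604) or HMLE-TWIST1 replicate 2 (0.061) or 3 (0.101), and that at day 4 without HMLE replicate 1 (0.118) or 2 (0.123) or HMLE-TWIST1 replicate 1 (0.232) or 2 (0.0626), or with no filter on low reads (0.0579).

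Of the receptors, the type II receptor TGFBR2, which binds the ligand, was higher in HMLE-TWIST1 in all 4 settings. With scramble at day 2 it had 124.9, 116.6 and 120.3 CPM in HMLE-TWIST1, against 75.6, 82.0 and 83.7 CPM in HMLE (0.63, SE 0.06, limma adjusted p = 9.92e-09). The other log2 differences were 0.63 and 0.24 with DMSO at day 2 and day 4, and 0.54 with scramble at day 4. The type I receptor TGFBR1, the kinase that phosphorylates the SMADs, passed the test only with scramble at day 4 (0.70, limma adjusted p = 3.01e-08). There it had 122, 113.4 and 125.9 CPM in HMLE-TWIST1 and 74.9, 74.2 and 72.6 CPM in HMLE. Its differences in the other 3 settings were between -0.07 and 0.34 and did not pass, although the 0.34 with DMSO at day 2 passed with only the DMSO libraries fitted (0.35, adjusted p = 0.00212).

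SMAD7, which blocks the type I receptor, had 3.82, 4.78 and 4.02 CPM in HMLE-TWIST1 with DMSO at day 2, against 11.4, 8.04 and 6.65 CPM in HMLE. With scramble at day 4 it had 2.51, 2.58 and 2.46 CPM in HMLE-TWIST1, against 47.9, 55.2 and 51.1 CPM in HMLE. It was lower in HMLE-TWIST1 in all 4 settings, without overlap, by -1.01 and -4.26 on the log2 scale in these 2 (limma adjusted p = 8e-04 and 7.96e-16). SKIL, also known as SnoN, which represses SMAD complexes, had 116.5, 126.5 and 124.7 CPM in HMLE-TWIST1 with scramble at day 4, against 986.5, 834.6 and 993 CPM in HMLE (-2.93, limma adjusted p = 8.14e-17). It was also lower with DMSO at day 4 (-2.24) and scramble at day 2 (-1.20). With DMSO at day 2, SKIL had 131.6, 127.3 and 135.5 CPM in HMLE-TWIST1 and 216.5, 214.3 and 143.1 CPM in HMLE, which did not pass (-0.53, limma adjusted p = 0.069). It passed with the replicate number as a block (adjusted p = 0.0306), with only the DMSO libraries fitted (-0.52, 0.00329) and without HMLE replicate 3 (-0.78, 0.0109).

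TGFBI had 2626, 2662 and 2476 CPM in HMLE-TWIST1 with scramble at day 2, against 1030, 1222 and 1167 CPM in HMLE (1.23, SE 0.05, limma adjusted p = 5.98e-13). It was higher in HMLE-TWIST1 by 0.71 with DMSO at day 4 and by 0.85 with scramble at day 4. With DMSO at day 2 the difference of 0.75 (limma adjusted p = 0.0464) was lost without any 1 of the 6 libraries (adjusted p 0.0858 to 0.196), with another library scaling (0.0533), with no filter (0.0574) and on the values as deposited (0.0623). SMAD7 and SKIL, which TGF-beta induces, and TGFBI, which it also induces, thus differed between the lines in opposite directions.

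**Figure D3:**
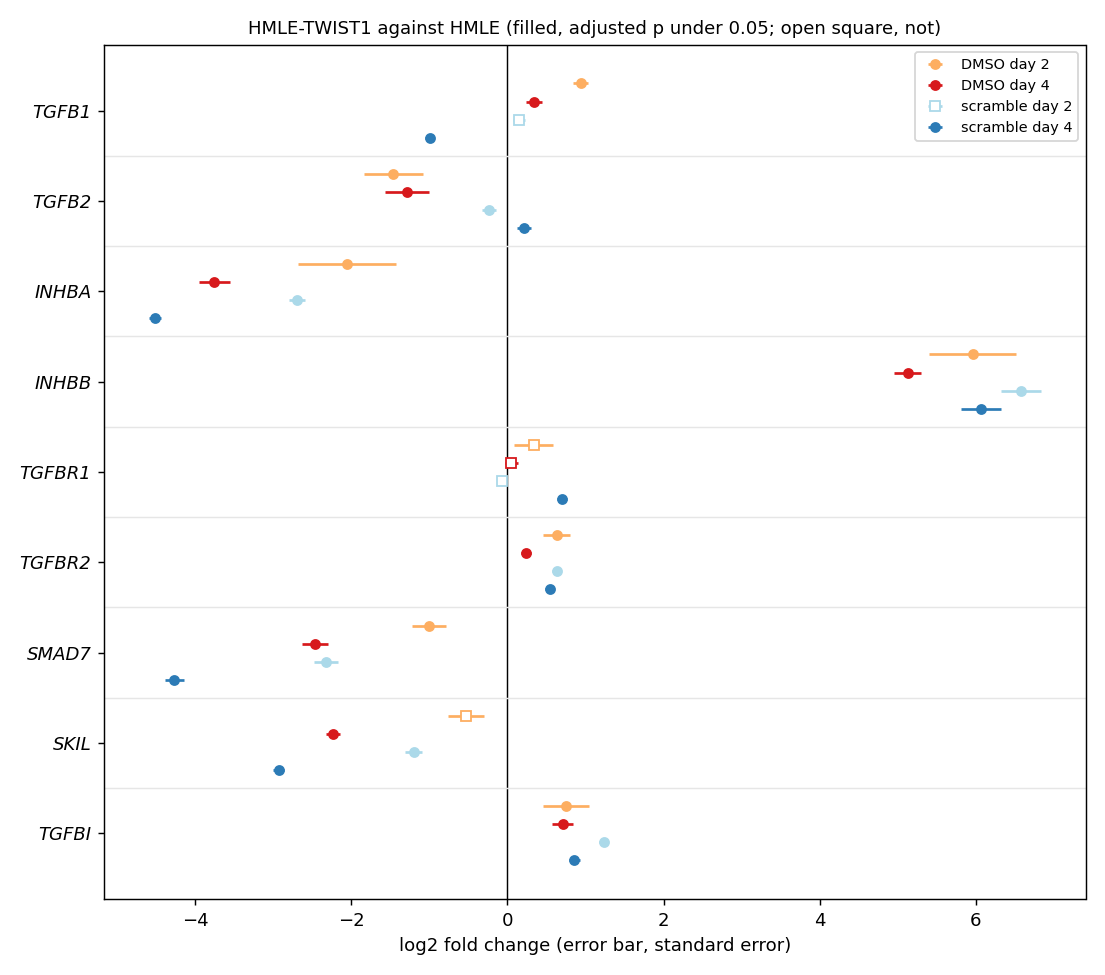
Log2 difference of HMLE-TWIST1 against HMLE for the 9 genes in 4 control settings, with bars of 1 standard error; filled circles passed an adjusted p of 0.05 and open squares did not. INHBB is far to the right and INHBA and SMAD7 to the left in all 4 settings, while TGFB1 changes side.

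In the wider pathway, calls between the lines are read beside the 47.4% of all genes called with DMSO at day 2, 24.1% higher and 23.2% lower. Here and below, the 6 gene lists were chosen with earlier results of these data known. Their counts and medians are descriptions and not tests of the pathway. The ligand list also counts BMP1, which is a protease and not a ligand. The genes that hold TGF-beta latent or activate it had 8 of 12 higher and 4 lower in HMLE-TWIST1 (median log2 difference 1.56), and known TGF-beta target genes had 10 of 18 higher and 7 lower (median 1.66), beside a median of 0.01 over all genes. The other lists were called in both directions: ligands 1 higher and 2 lower of 8, receptors 5 and 4 of 11, SMADs 2 and 2 of 7, antagonists 4 and 4 of 13. GREM1, a secreted antagonist of bone morphogenetic proteins, averaged 707.6 CPM in HMLE-TWIST1 and 0.142 CPM in HMLE. TGFBR3, the accessory receptor betaglycan, averaged 42.8 and 0.165 CPM in HMLE-TWIST1 and HMLE. DCN, a matrix proteoglycan counted in the latency list, averaged 273.9 and 0.689 CPM. In the other direction, ITGB6, whose integrin frees latent TGF-beta at epithelial surfaces, averaged 0.434 CPM in HMLE-TWIST1 and 62.3 CPM in HMLE, and the ligand BMP2 0.535 and 38.5 CPM. The list counts above are for DMSO at day 2, and the target list was more evenly split in the other settings. With DMSO at day 4 it had 9 higher and 9 lower (median 0.25, 66.9% of all genes called). With scramble it had 9 and 8 at day 2 (0.57, 69%) and 9 and 9 at day 4 (0.42, 74.4%). Latency medians in these settings were 1.15, 2.05 and 0.33.

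Day 4 was set against day 2 in the controls of each line. In HMLE cells the activin A gene INHBA and both inhibitors were higher at day 4 with either control, while in HMLE-TWIST1 cells none of these 3 was called higher. The difference between the lines in this was not tested. The 2 days differ in the length of DMSO exposure or the fresh medium as well as in time. With scramble, 5 members rose and 2 fell in HMLE (42.3% of genes called, 21.7% higher and 20.6% lower). INHBA had 985.6, 894.4 and 999.5 CPM at day 4 and 242.7, 266.3 and 276.2 CPM at day 2 in HMLE (1.87, SE 0.10, limma adjusted p = 5.76e-13). SKIL rose by 1.59, SMAD7 by 1.49, TGFB2 by 0.71 and TGFB1 by 0.69, while TGFBR1 fell by 0.64 and TGFBI fell by 0.35. With DMSO, 6 members were higher at day 4 in HMLE and none lower (36% of genes called, 20.6% higher and 15.4% lower): INHBB by 1.56 from few reads, SKIL by 1.51, SMAD7 by 1.29, INHBA by 1.02, TGFB1 by 0.71 and TGFBR2 by 0.33. The INHBB call was lost with precision weights (adjusted p = 0.228).

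In HMLE-TWIST1 cells, scramble at day 4 against day 2 gave 2 members higher and 3 lower (29.1% of genes called, 13.6% higher and 15.5% lower). TGFB2 had 44.1, 38.1 and 37.5 CPM at day 4 and 18.8, 16.3 and 16.3 CPM at day 2 (1.21, limma adjusted p = 2.22e-11). TGFB1 fell by 0.41 and TGFBI fell by 0.69. SMAD7 (-0.42, limma adjusted p = 0.0249) and TGFBR1 (0.17, limma adjusted p = 0.0259) each lost the call without 1 of 4 libraries: for SMAD7, scramble day 2 replicate 1 (0.069) or 2 (0.0543) or day 4 replicate 1 (0.0565) or 3 (0.0637), and for TGFBR1, day 2 replicate 1 (0.0525) or 3 (0.130) or day 4 replicate 1 (0.0642) or 3 (0.137). SMAD7 also lost it with precision weights (0.134). With DMSO none of the 9 members passed between the days in HMLE-TWIST1, where 0.345% of all genes were called. INHBA averaged 35.5 CPM at day 4 and 55.99 CPM at day 2. It passed as lower without DMSO day 4 replicate 2 (-0.83, limma adjusted p = 0.0167) and with the replicate number as a block (-0.67, 0.0237).

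Chaetocin was compared with DMSO in HMLE-TWIST1 cells at day 2. INHBB and TGFB1 were lower at all 4 doses, TGFBI was lower at 200 and 500 nM, and no member passed in the higher direction. The 4 doses share the same 3 DMSO libraries and lie in another set of the matrix than these. Of the 9 members, 3 were lower and 0 higher at 100 nM (23.7% of genes called, 11.8% lower and 11.9% higher), 3 and 0 at 150 nM (34.3% called, 16.5% and 17.8%), 3 and 0 at 200 nM (40% called, 19.1% and 20.9%) and 4 and 0 at 500 nM (50.7% called, 24.7% and 26%). Here and below, bulk RNA cannot tell fewer cells of a type apart from less RNA per cell.

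INHBB had 23.2, 35.3 and 15.4 CPM with DMSO, 10.3, 4.04 and 9.54 CPM at 100 nM, 4.68, 3.09 and 4.72 CPM at 150 nM, 3.86, 1.49 and 3.90 CPM at 200 nM, and 5.49, 1.87 and 1.62 CPM at 500 nM. All 12 dosed libraries lay below all 3 DMSO libraries. The log2 change was -1.66 (SE 0.56, limma adjusted p = 0.0407) at 100 nM, -2.48 (adjusted p = 0.00291) at 150 nM, -2.99 (adjusted p = 0.00058) at 200 nM and -3.13 (adjusted p = 0.00025) at 500 nM. The 100 nM call did not survive leaving out replicate 1 (0.092) or 2 (0.156) of DMSO, nor replicate 1 (0.0542) or 2 (0.161) of the 100 nM group. It was also lost with a prior count of 0.5 (0.125) and on the values as deposited (0.0632).

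TGFB1 lay between 57.2 and 79.0 CPM in the 12 dosed libraries, against 87.9, 94.3 and 92.5 CPM with DMSO, and again the dosed libraries did not overlap with DMSO. Its log2 change was -0.41 at 100 nM, -0.58 at 150 nM, -0.57 at 200 nM and -0.48 at 500 nM (limma adjusted p = 0.00606, 0.000291, 0.000215 and 0.000555), and the 100 nM call was lost on the log2 RPKM values as deposited (adjusted p = 0.0775). TGFBI had 1534, 1389 and 1300 CPM with DMSO, 1531, 919 and 1111 CPM at 100 nM, 1000, 720.3 and 977 CPM at 150 nM, 885, 562 and 872 CPM at 200 nM, and 1137, 462 and 455 CPM at 500 nM. The dosed libraries overlapped with DMSO at 100 nM alone. TGFBI changed by -0.30 (limma adjusted p = 0.489) at 100 nM, -0.68 (0.0849) at 150 nM, -0.92 (0.0207) at 200 nM and -1.22 (SE 0.29, 0.00288) at 500 nM. The 200 nM call did not survive leaving out replicate 1 (0.0639) or 2 (0.0588) of DMSO, nor replicate 2 of the 200 nM group (0.0992).

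The remaining calls were less stable. SKIL at 100 nM had 59.2, 111 and 82.5 CPM, against 131.6, 127.3 and 135.5 CPM with DMSO (-0.71, limma adjusted p = 0.0347), and did not pass at the other doses. SMAD7 at 150 nM had 2.34, 3.00 and 2.95 CPM, against 3.82, 4.78 and 4.02 CPM with DMSO (-0.60, limma adjusted p = 0.0398). TGFBR2 at 500 nM had 70.9, 94.2 and 107 CPM, against 129.7, 111.8 and 113.2 CPM with DMSO (-0.44, limma adjusted p = 0.0447). Each of these 3 calls was lost without any 1 of 5 of its 6 libraries: for SKIL any but 100 nM replicate 2 (0.0561 to 0.170), for SMAD7 any but 150 nM replicate 3 (0.057 to 0.151), and for TGFBR2 any but 500 nM replicate 3 (0.0611 to 0.229). All 3 were also lost on the values as deposited (0.0718 for SKIL, 0.0952 for SMAD7 and 0.115 for TGFBR2), SMAD7 with precision weights (0.0628) and TGFBR2 with another library scaling (0.0582). TGFB2 and TGFBR1 overlapped with DMSO at every dose and did not pass.

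INHBA separated the replicates of a dose. It had 53.1, 56.1 and 58.8 CPM with DMSO, 32.9, 106 and 107.7 CPM at 100 nM, 59.7, 149.3 and 122.8 CPM at 150 nM, 59.4, 199.7 and 138.6 CPM at 200 nM, and 59.8, 236.9 and 328.4 CPM at 500 nM. Replicates 2 and 3 lay above DMSO at each dose, and replicate 1 lay below DMSO at 100 nM and just above it at the others. At 500 nM the change was 1.54 (SE 0.63, limma adjusted p = 0.0536), and without 500 nM replicate 1 it was 2.28 (adjusted p = 0.00467). It also passed on the values as deposited (0.0297) and with another library scaling (0.0478). The INHBB share of the activin subunits was 49.5% ± 10.8 with DMSO and 22.6%, 9.49%, 7.06% and 6.90% on average from 100 to 500 nM (n = 3 each). At 500 nM the share was 17.7% in replicate 1 and 1.82% and 1.15% in replicates 2 and 3.

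Between neighbouring doses none of 18801 genes passed in limma, members included. At an unadjusted p under 0.05 there were 797 genes at 150 against 100 nM, 273 at 200 against 150 nM and 1380 at 500 against 200 nM. The same-numbered libraries of neighbouring doses deviated together (r of 0.498 to 0.852), and with the replicate number as a block and the dose libraries alone 60 genes passed at 500 against 200 nM, with no member among them.

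**Figure D4:**
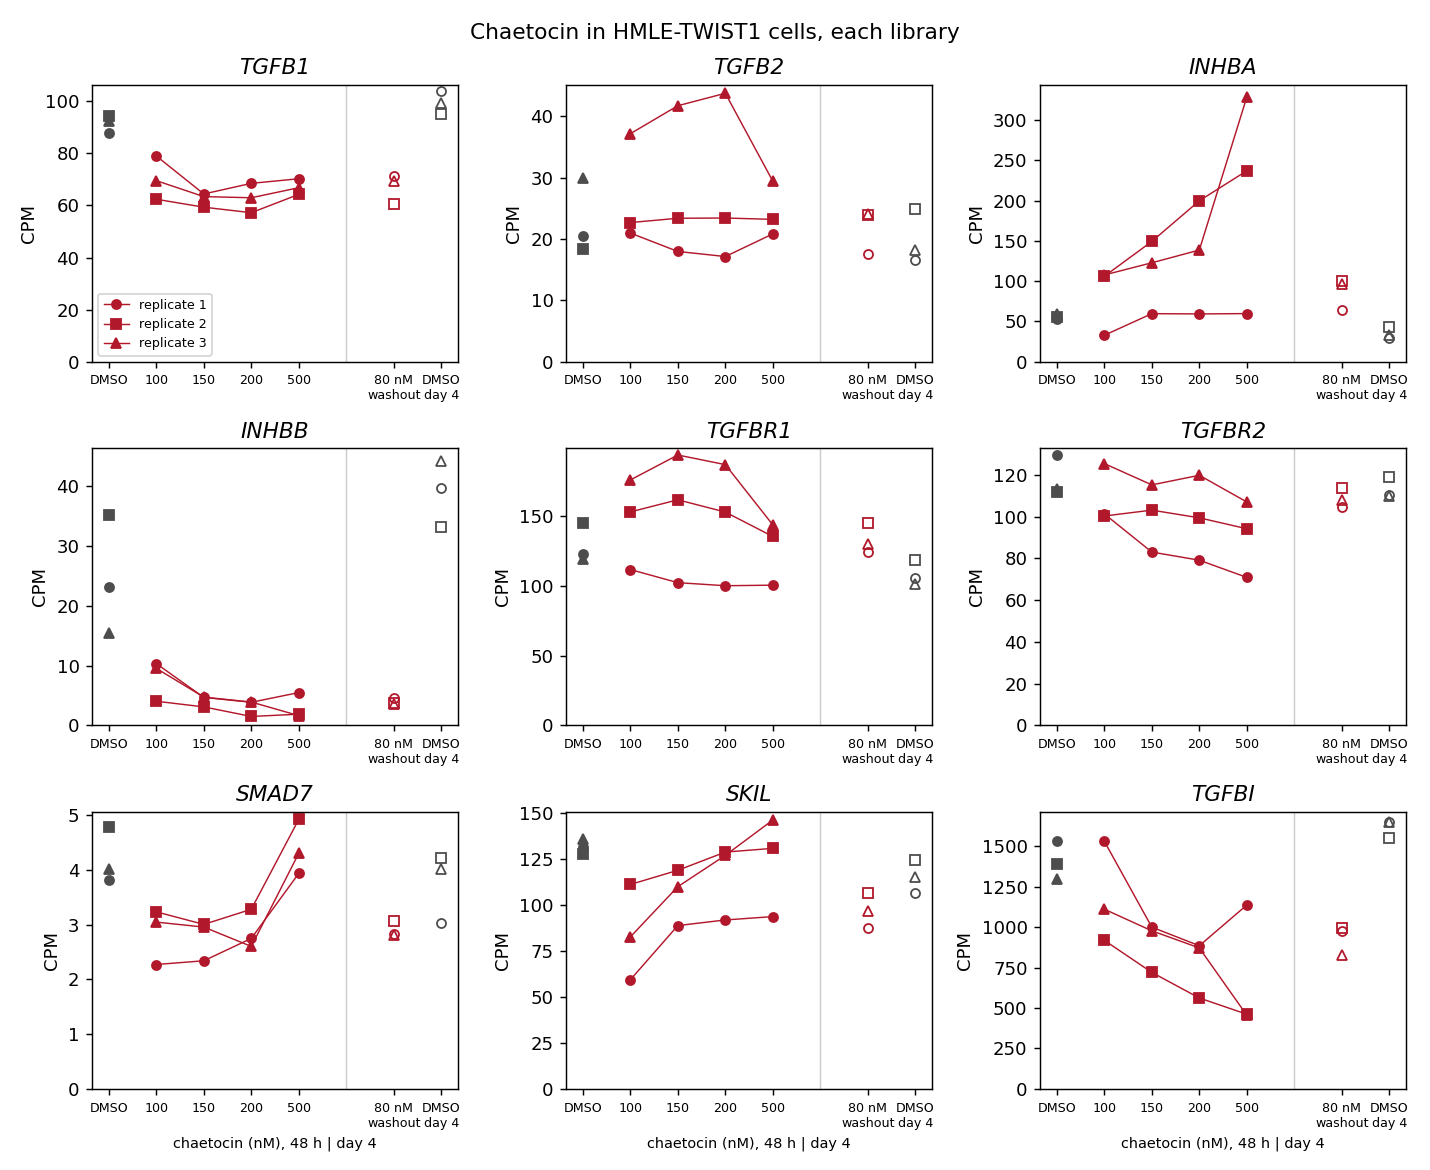
Level of the 9 genes in CPM in each HMLE-TWIST1 library by chaetocin dose in nM at day 2, with lines joining libraries of the same replicate number, and the 80 nM washout beside its DMSO control at day 4. INHBB and TGFB1 lie below DMSO at every dose, and INHBA is high in replicates 2 and 3.

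The 80 nM washout, which has its DMSO control in the same set of the matrix, gave 2 members higher and 3 lower at day 4 (36.6% of genes called, 19.4% higher and 17.2% lower). The activin pair moved in opposite directions. INHBB had 4.59, 3.82 and 3.62 CPM with chaetocin, against 39.8, 33.2 and 44.2 CPM with DMSO (-3.21, SE 0.17, limma adjusted p = 2.63e-08). INHBA had 63.9, 99.8 and 96.3 CPM with chaetocin, against 29.9, 43.8 and 32.8 CPM with DMSO (1.29, SE 0.20, limma adjusted p = 0.00103). Neither pair of groups overlapped, and the INHBB share was 10.3% ± 3.61 with chaetocin and 71.9% ± 6.82 with DMSO (SD, n = 3).

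TGFB1 had 71.3, 60.5 and 69.5 CPM with the 80 nM washout, against 103.9, 95.1 and 99.3 CPM with DMSO (-0.55, limma adjusted p = 0.000899). TGFBI had 975, 996 and 827 CPM with chaetocin, against 1650, 1553 and 1652 CPM with DMSO (-0.78, limma adjusted p = 0.0011). TGFBR1 had 124.5, 145 and 130 CPM with chaetocin, against 105.9, 118.4 and 101.4 CPM with DMSO (0.31, limma adjusted p = 0.00962). These groups were separate in all 3 genes, but the TGFBR1 call was lost without DMSO replicate 3 (0.26, adjusted p = 0.054). SKIL (-0.23), SMAD7 (-0.33), TGFB2 (0.16) and TGFBR2 (-0.04) did not pass. SKIL passed as lower with no filter on low reads (limma adjusted p = 0.0432) and with the replicate number as a block (0.0222). It also passed without DMSO replicate 1 (0.0334) or 80 nM replicate 2 (0.0284), and SMAD7 passed as lower without DMSO replicate 1 (0.0497).

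Marker sums moved with chaetocin as well. FN1 weighs heavily in the mesenchymal sum, which need not speak for each marker. The 5 mesenchymal markers summed to 5807 to 7905 CPM at 500 nM, against 24260 to 28750 CPM with DMSO at day 2, and to 12480 to 18690 CPM with the washout, against 23790 to 29960 CPM with its DMSO. TWIST1 itself averaged 549.9 CPM with DMSO and 450.5, 344, 310.6 and 234.6 CPM from 100 to 500 nM. Of 5 leukocyte markers, the 2 in the matrix summed to 4.30 to 17.3 CPM at 500 nM, against 0.0735 to 0.155 CPM with DMSO. The part of these in the results was not tested.

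Elsewhere in the pathway, more receptors and latency genes were called lower than higher with chaetocin. At 500 nM, where 24.7% of all genes were called lower and 26% higher, receptors had 3 higher and 7 lower of 11 (median log2 change -0.61), SMADs 0 and 5 of 7, latency genes 1 and 6 of 12 (median -0.95), antagonists 4 and 6 of 13, ligands 3 and 3 of 8, and targets 4 and 7 of 18, beside a median of 0.02 over all genes. The washout, with 17.2% of all genes called lower and 19.4% higher, gave receptors 1 higher and 6 lower of 11, latency genes 0 and 6 (median -0.68), SMADs 0 and 3, antagonists 3 and 3, ligands 2 and 3 of 6, and targets 5 and 4. BMP1, a protease that frees latent TGF-beta complexes and is counted in the ligand list, fell at 100 nM by 1.44 and at 500 nM by 1.82. FSTL3, a secreted binder of activins, fell by 1.16 at 100 nM and averaged 10.5 CPM with the washout and 28.1 CPM with DMSO. GDF15, a distant family member induced by cell stress, was higher by 2.70 at 100 nM and by 4.45 at 500 nM. With the washout, HTRA1 of the target list was lower (-0.99), as were SMAD6 (-1.075) and the antagonist BAMBI (-1.25). ID1 and ID3, BMP targets that are counted in the target list, were higher with the washout. They averaged 36.8 and 17.5 CPM, against 18.4 and 7.07 CPM with DMSO.

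Knockdown of SUV39H1 and SUV39H2 was compared with scramble in each line and at each day. TGFBI and TGFBR1 were lower in both lines at day 2 and in HMLE-TWIST1 at day 4. TGFB1 fell in HMLE at day 2, and INHBA fell in HMLE-TWIST1 at both days. At day 2 no member was higher and 4 were lower in HMLE-TWIST1 (15.8% of genes called, 7.54% higher and 8.26% lower), and again 0 and 4 in HMLE (28.7% called, 14.1% and 14.7%). At day 4 there were 1 higher and 6 lower in HMLE-TWIST1 (38% called, 19% higher and 19% lower), and 2 higher and 1 lower in HMLE (26.1% called, 11.7% and 14.4%).

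In HMLE-TWIST1 cells at day 2, INHBB had 27.0, 21.6 and 21.1 CPM with the DsiRNA, against 52.0, 45.4 and 44.9 CPM with scramble (-1.04, SE 0.26, limma adjusted p = 0.00925). INHBA had 30.5, 27.6 and 22.2 CPM with the DsiRNA, against 39.9, 40.1 and 36.8 CPM with scramble (-0.56, SE 0.10, limma adjusted p = 0.00198). Both subunit genes were thus lower without overlap. The INHBB share was 67.1% ± 2.13 with the DsiRNA and 74.1% ± 1.35 with scramble (SD, n = 3). TGFBI had 1430, 1331 and 1405 CPM with the DsiRNA, against 2626, 2662 and 2476 CPM with scramble (-0.91, SE 0.05, limma adjusted p = 2.4e-09). TGFBR1 had 74.8, 71.0 and 71.0 CPM with the DsiRNA, against 106.7, 110.3 and 102.2 CPM with scramble (-0.56, SE 0.05, limma adjusted p = 9e-07).

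In HMLE cells at day 2, TGFB1 had 42.7, 44.9 and 53.6 CPM with the DsiRNA, against 79.9, 80.3 and 83.7 CPM with scramble (-0.76, SE 0.08, limma adjusted p = 1.21e-06). TGFBI had 645.5, 705.6 and 713.2 CPM with the DsiRNA, against 1030, 1222 and 1167 CPM with scramble (-0.69, SE 0.05, limma adjusted p = 5.91e-08). TGFB2 changed by -0.51 (limma adjusted p = 0.000323) and TGFBR1 by -0.42 (limma adjusted p = 1.33e-05). None of these 4 genes overlapped between DsiRNA and scramble libraries. The knockdown effect on TGFB1 and on TGFB2 was more negative in HMLE than in HMLE-TWIST1 (difference of the effects, HMLE-TWIST1 minus HMLE, 0.59 and 0.55, limma adjusted p = 0.00175 and 0.00846), where 12.2% of all genes passed the test of that difference, 6.36% higher and 5.83% lower.

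At day 4 in HMLE-TWIST1, TGFB2 had 17.1, 15.4 and 17.5 CPM with the DsiRNA, against 44.1, 38.1 and 37.5 CPM with scramble (-1.27, SE 0.09, limma adjusted p = 7.92e-09). The DsiRNA libraries were close to the day 2 level of TGFB2, at 17.4 to 17.8 CPM with the DsiRNA and 16.3 to 18.8 CPM with scramble, while the day 4 scramble libraries stood above all of these. The 2 receptor genes moved apart. TGFBR1 had 64.4, 65.0 and 64.9 CPM with the DsiRNA, against 122, 113.4 and 125.9 CPM with scramble (-0.91, SE 0.07, limma adjusted p = 8.54e-09). TGFBR2 had 173.3, 172.7 and 176 CPM with the DsiRNA, against 118.9, 113.6 and 113.1 CPM with scramble (0.58, SE 0.06, limma adjusted p = 5.79e-07). Per length, TGFBR2 made up 79.6% ± 0.169 of the receptor pair with the DsiRNA and 58.2% ± 1.39 with scramble (SD, n = 3).

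TGFBI in HMLE-TWIST1 at day 4 had 955, 990 and 970 CPM with the DsiRNA, against 1709, 1562 and 1568 CPM with scramble (-0.74, limma adjusted p = 4.26e-07). INHBA had 25.0, 27.1 and 24.6 CPM with the DsiRNA, against 43.3, 42.4 and 39.7 CPM with scramble (-0.72, limma adjusted p = 1.76e-06). INHBB did not pass (-0.01, limma adjusted p = 0.984). The calls on TGFB1 and SKIL were weak. TGFB1 (-0.24, limma adjusted p = 0.00511) lost its call without DsiRNA replicate 2 (0.0638) or 3 (0.0874), and SKIL (-0.19, limma adjusted p = 0.0459) without any 1 of the 6 libraries (0.073 to 0.366) and under 5 other settings (0.0518 to 0.117).

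At day 4 in HMLE, INHBA had 1086, 1258 and 1434 CPM with the DsiRNA, against 985.6, 894.4 and 999.5 CPM with scramble (0.37, limma adjusted p = 0.0024). TGFBR2 had 93.7, 91.9 and 107.9 CPM with the DsiRNA, against 80.1, 79.8 and 77.6 CPM with scramble (0.29, limma adjusted p = 0.00164). SMAD7 had 38.4, 37.3 and 45.3 CPM with the DsiRNA, against 47.9, 55.2 and 51.1 CPM with scramble (-0.37, limma adjusted p = 0.0329), a call lost without scramble replicate 2 (0.110) or 3 (0.0795) or DsiRNA replicate 1 (0.108) or 2 (0.125). The knockdown effect differed between the lines at day 4 in 6 of the 9 members, 2 more positive and 4 more negative in HMLE-TWIST1, where 22.9% of all genes passed that test, 12.2% higher and 10.7% lower. INHBA had the opposite sign in the 2 lines, with a difference of -1.09 (SE 0.11, limma adjusted p = 4.03e-06). Between the days, the knockdown effect differed in 3 members in HMLE-TWIST1, 1 more positive and 2 more negative at day 4 (20% of genes called, 10.9% and 9.1%), and in 6 members in HMLE, all more positive at day 4 (17.6% called, 8.07% more positive and 9.52% more negative).

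**Figure D5:**
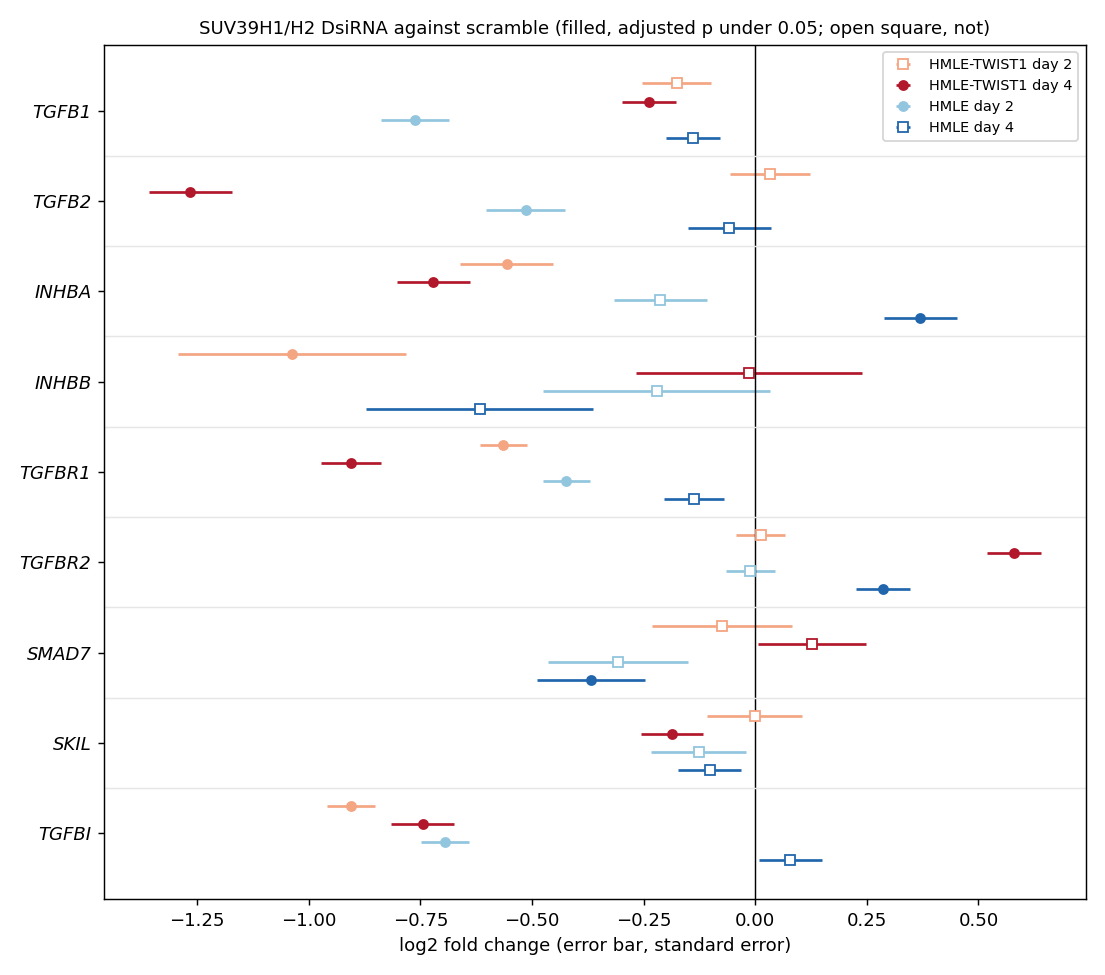
Log2 change with SUV39H1/H2 DsiRNA against scramble for the 9 genes in HMLE-TWIST1 and HMLE at day 2 and day 4, with bars of 1 standard error; filled circles passed an adjusted p of 0.05 and open squares did not. TGFBI and TGFBR1 lie to the left and pass in 3 of the 4 comparisons, and TGFBR2 lies to the right at day 4.

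Marker sums moved with the knockdown too. FN1 weighs heavily in the mesenchymal sum, and KRT5 and KRT14 in the epithelial sum, so these need not speak for each marker. The mesenchymal markers summed to 21190 to 22390 CPM with the DsiRNA and 28330 to 30050 CPM with scramble in HMLE-TWIST1 at day 2, and to 9210 to 9402 CPM and 18780 to 20420 CPM at day 4. The epithelial markers summed to 6786 to 7349 CPM with the DsiRNA and 11510 to 12000 CPM with scramble in HMLE at day 2, and in the opposite direction at day 4, to 7988 to 8946 CPM with the DsiRNA and 6350 to 7367 CPM with scramble. The mesenchymal markers of HMLE summed to 755.2 to 798.6 CPM with the DsiRNA and 964.8 to 1124 CPM with scramble at day 2, and overlapped at day 4, at 2411 to 3282 CPM and 2480 to 2962 CPM. TWIST1 changed by -0.49 and -0.48 in HMLE-TWIST1 at day 2 and day 4. The part of these in the results was not tested.

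Among the wider lists, the target genes of TGF-beta were the ones with most lower members at day 2. In HMLE-TWIST1, 0 were higher and 12 lower of 18 (median -0.54), and in HMLE 1 and 9 (median -0.41), beside medians of -0.01 and 0 over all genes and 8.26% and 14.7% of all genes called lower. CDKN2B, which encodes the growth inhibitor p15, averaged 104.4 CPM with the DsiRNA and 262 CPM with scramble in HMLE at day 2. BHLHE40, a transcriptional repressor, fell by 0.66 in both lines at day 2, and in HMLE-TWIST1 at day 4 it was higher by 0.95. FSTL3 changed by -0.83 in HMLE-TWIST1 and -0.81 in HMLE at day 2, and by -1.03 in HMLE-TWIST1 and 0.47 in HMLE at day 4. At day 4 the targets were split, with 7 higher and 8 lower in HMLE-TWIST1, where 38% of all genes were called, and 3 and 5 in HMLE, where 26.1% were. Of the other lists at day 2 in HMLE-TWIST1, with 15.8% of all genes called, ligands had 0 higher and 1 lower, receptors 1 and 1, SMADs 0 and 1, antagonists 2 and 3, and latency genes 1 and 5 of 12. In HMLE at day 2, with 28.7% of all genes called, ligands had 0 higher and 2 lower of 7, receptors 2 and 1, SMADs 0 and 3, antagonists 3 and 5 of 12, and latency genes 1 and 4.

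Across the 17 group means, 3 members followed one pattern. SMAD7 and SKIL had a Pearson r of 0.978, SMAD7 and INHBA 0.898, and SKIL and INHBA 0.868, while INHBA and INHBB had -0.912. These are descriptions over 17 points that share the 2 lines and 3 libraries each. Among 11848 genes, those most like SMAD7 were DIP2B (r = 0.992), DAAM1 (0.99) and ANKLE2 (0.986), and those most like SKIL were SEMA3C (0.993), PRKCI (0.979) and SMAD7. The nearest to INHBA were STK17A (0.983), PRDM1 (0.981) and MICALL1 (0.978), and the nearest to INHBB were REPS2 (0.980), CDON (0.978) and IL1R1 (0.977). The patterns of TGFB1, TGFB2, TGFBR1, TGFBR2 and TGFBI were matched less closely, with best values of 0.914 (DLGAP4), 0.786 (C5orf63), 0.932 (NPRL3), 0.935 (MAML1) and 0.895 (ZYG11B).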

How the data were processed

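RNA was sequenced in 51 libraries, 17 groups of 3, with a stranded total RNA kit per the labels' protocols. The submitters' processing notes name STAR, HTSeq, hg19 and GRCh37. The deposited log2 RPKM values fall into 3 sets of libraries, told apart by which genes have values. Whole reads were recovered from the deposited log2 values, 100.0% of them whole within a tolerance of 0.0001, and RPKM means were formed without the authors' added reads. A deposited count table has 81 columns that name no sample and was not used. Library sizes were rescaled by a trimmed mean (30% of log ratios, 5% of levels), with 10 reads in 3 libraries and 15 in all as the filter. Log2 CPM with a prior count of 2 was fitted in limma 3.58.1 (R 4.3.3, statmod 1.5.0) with a trend and robust variances, Benjamini-Hochberg adjusted over all genes tested, in 24 comparisons. CPM per library use 1 scaling of all 51 libraries. Replicate numbers paired samples, every r over 0.1, between the lines with DMSO at day 2 (r of 0.142 to 0.184) and day 4 (0.113 to 0.194) and between doses; this comes from the data, not the labels. All 9 members are named in every comparison, with up to 3 genes per list by smallest adjusted p and 3 genes of most similar pattern. Members and the 6 lists were chosen with earlier results of these data known. Alternatives were scaling, filter, prior count, precision weights, the deposited values, only the DMSO libraries, the dose libraries alone with and without the block, the block, and leaving out each library.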

Additional observations from a re-analysis of the deposited data

Results flagged for a closer look

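The knockdown effect of SUV39H1/H2 DsiRNA against scramble differed between the lines in 2 members at day 2 and 6 at day 4, by limma's test of the difference (HMLE-TWIST1 minus HMLE, log2 scale, Benjamini-Hochberg adjusted). Of all genes, 12.2% passed this test at day 2 and 22.9% at day 4. At day 2 the differences were 0.59 for TGFB1 and 0.55 for TGFB2. At day 4 they were -1.09 for INHBA, -1.21 for TGFB2, -0.82 for TGFBI, -0.77 for TGFBR1, 0.29 for TGFBR2 and 0.49 for SMAD7. TGFB2 changed sides: its effect was more negative in HMLE at day 2 and more negative in HMLE-TWIST1 at day 4. The SMAD7 difference (adjusted p = 0.046) was lost without any of 10 of the 12 libraries, all but replicate 3 of the DsiRNA in each line (0.0505 to 0.111), and with precision weights (0.161).

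The effect also differed between the days within a line (day 4 minus day 2). Of all genes, 17.6% passed this test in HMLE and 20% in HMLE-TWIST1. In HMLE, 6 members had a more positive effect at day 4: TGFBI by 0.76, TGFB1 by 0.61, INHBA by 0.57, TGFB2 by 0.45, TGFBR2 by 0.29 and TGFBR1 by 0.28. The TGFBR1 value (adjusted p = 0.0198) was lost without scramble day 2 replicate 2 (0.0527) or DsiRNA day 4 replicate 3 (0.0633). In HMLE-TWIST1 the values were -1.29 for TGFB2, -0.33 for TGFBR1 and 0.58 for TGFBR2. INHBB did not pass there in the main fit. It passed with precision weights (1.02, limma adjusted p = 1.33e-07) and with the replicate number as a block (1.04, 0.0486). It also passed without DsiRNA day 2 replicate 1 (1.16, 0.0478).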

How the results depend on the processing

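Of 216 member results, 102 passed the threshold. Under every alternative run 83 of these kept direction and call, 19 lost the call under at least 1 and none changed sign; 21 others passed under at least 1. A library left out ended 17 calls, other settings 11. Between 500 and 200 nM chaetocin, 0 genes passed, and 60 (48 higher, 12 lower) with the dose libraries alone and the replicate block. At day 4 against day 2 with DMSO in HMLE-TWIST1, 61 genes passed, against 102 with precision weights, 1 with the deposited values, 162 with the replicate block and 3 to 181 with a library left out. At 150 against 100 nM, leaving out a library gave 0 to 1. The replicate block added 7 member calls, of which only SKIL between the lines with DMSO at day 2 is in a comparison where the numbers pair the samples. It ended 2: TGFB2 between the lines with scramble at day 4 (0.0566) and SMAD7 in the knockdown difference between the lines at day 4 (0.0651). The HMLE level of INHBB is a few reads, so depth limits its fold: a prior count of 0.5 gave 6.89 in place of 5.96 with DMSO at day 2. The causes were not tested.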
